A study of Mus musculus with 32 samples.

Results

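Translation initiation and elongation factors were taken as the protein-coding genes of the deposited table whose symbols start with Eif or Eef, without the Eif2ak kinases and without pseudogenes. They numbered 62 of the 18588 genes. RefSeq lists 68 such genes in mouse, and the other 6 (Eef1a2, Eef1akmt3, Eef1akmt4, Eef1akmt4-ece2, Eif4e1b and Eif2s3y) are not analysed here. The study compared microglia of rTg4510 and wild type (WT) mice at 2, 4, 6 and 8 months of age, to follow the cells along the development of tau pathology. All animals were female. rTg4510 mice carried 2 transgenes, a tetracycline-controlled transactivator (tTA) under the CaMKIIα promoter and mutant human tau behind a tetracycline-responsive element, so that tau is made by forebrain neurons and not by the microglia themselves. WT mice were littermates with neither transgene and are labelled as strain 129/FVB F1, so the tTA and the tau transgene cannot be told apart as the source of a difference. Each library came from CD11b-positive cells captured on magnetic beads, and the forebrains of 8 to 10 animals were pooled for it. Used here were 28 libraries (for each genotype 4 at 2 and 6 months, otherwise 3), without the 4 libraries that the authors left out after failed RNAseq QC.

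Protein synthesis starts when the small ribosomal subunit, held by eIF1, eIF1A and the multi-subunit eIF3, receives the initiator tRNA from eIF2, is recruited to the capped mRNA by eIF4E, eIF4G and the helicase eIF4A, and scans to the start codon. eIF5 and eIF5B then allow the large subunit to join. In elongation eEF1A brings each aminoacyl-tRNA to the ribosome, the eEF1B subunits recharge eEF1A with GTP, and eEF2 moves the ribosome along the mRNA. The pathway is controlled mainly at the protein level, through phosphorylation of eIF2, the 4E-binding proteins and eEF2, so an mRNA level says nothing by itself about the rate of translation. The mRNAs of many elongation factors and of some eIF3 subunits, like those of ribosomal proteins, begin with a run of pyrimidines, the terminal oligopyrimidine (TOP) motif, through which they are translated together.

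All values are log2 signals as deposited, and a difference between genotypes is a log2 fold change of rTg4510 against WT at the same age, given with its standard error (SE). FDR values came from limma's linear model fitted to the means of 8 groups of genotype and age, and were adjusted over all 18588 genes of a comparison. "Rose" and "fell" are used only for FDR under 0.05, and a DEG also changed by more than 1.5 fold. The lowest value of any factor in any library was 3.52, above the lowest values of the libraries (1.23 to 1.92). Of the 62 factors, 50 had a mean signal above the median of all genes, and their median SE at 2 and 6 months was 0.0826, against 0.164 over all genes. A share of factors called is therefore read below beside the share of all genes, but the part of their smaller SE in the shares was not tested.

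The label microglia was checked against marker genes. All 9 microglia markers had a row, with means from 6.24 (Aif1) to 13.57 (Cx3cr1). Csf1r and Tmem119 averaged 12.20 and 11.36. Of 9 neuron markers 4 had a row, with means of 2.95 to 4.79. Other markers were not all low. Border macrophage markers averaged 6.01 to 9.44, astrocyte markers 3.30 to 7.67 and neutrophil markers 4.21 to 7.27. Oligodendrocyte markers averaged 3.67 to 6.59, endothelial markers 3.96 to 6.48 and lymphocyte markers 3.07 to 4.66. The median of all genes was 5.58. In rTg4510, 4, 5, 6 and 6 of the 9 microglia markers fell at 2, 4, 6 and 8 months, and 0, 1, 2 and 1 rose. All 6 neutrophil markers fell at 6 and at 8 months (summed linear signal 462 to 1213 in WT and 152 to 254 in rTg4510 at 6 months), whereas 0 of 6 passed at 2 and 4 months. Summed on the linear scale, the 10 strongest genes made up 39.0% to 46.4% of the signal in WT libraries and 30.3% to 40.1% in those of rTg4510. The part of these shifts in the results was not tested. In these bulk preparations, fewer cells of a type and less RNA per cell cannot be told apart.

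At every age more translation factors were higher than lower in rTg4510 microglia. The DEGs that were higher at 4, 6 and 8 months alike were the elongation factors Eef1a1, Eef1b2, Eef1g and Eef2, the eIF3 subunits Eif3f, Eif3h, Eif3i and Eif3k, and Eif4b and Eif5a. At 2 months 12 of 62 rose and 0 fell, where 4.76% of all genes rose and 1.27% fell. At 4 months 26 rose and 2 fell (14.1% and 9.1% of all genes). At 6 months 33 rose and 1 fell (19.1% and 14.9%), and at 8 months 32 rose and 3 fell (16% and 9.78%). In percent, 19.4%, 41.9%, 53.2% and 51.6% of the factors rose at the 4 ages, each above the share of all genes. The median log2 fold change of the factors was 0.12, 0.21, 0.24 and 0.29, and that of all genes was 0.01, -0.04, -0.04 and -0.01. Over protein-coding genes alone, 3.52%, 12.8%, 18.2% and 15% rose. In either direction 6.03%, 23.2%, 34.1% and 25.7% of all genes passed, beside 12, 28, 34 and 35 of the factors.

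**Figure D1:**
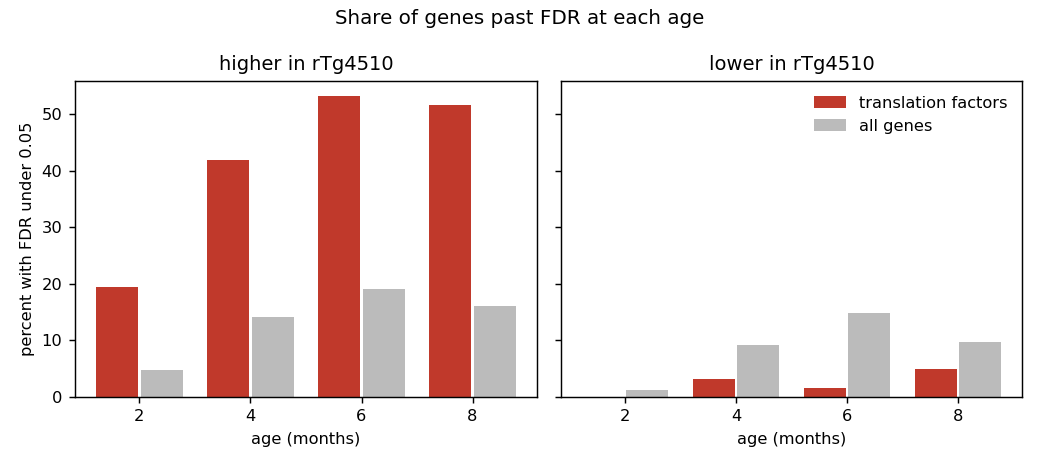
Percent of the 62 translation factors (red) and of all 18588 genes (grey) with FDR under 0.05 at each age in months, higher in rTg4510 on the left and lower on the right. The red bars on the left reach 19.4%, 41.9%, 53.2% and 51.6%, above the grey bars at each age, and those on the right stay at or under 4.84%, below the grey bars.

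Separation between the genotypes was also read without a model. All rTg4510 libraries lay above all WT libraries of the same age for 13, 33, 31 and 37 factors at 2, 4, 6 and 8 months, against 7.49%, 19.1%, 18.2% and 21.2% of all genes. They lay below all WT libraries for 0, 3, 1 and 3 factors (3.51%, 17.5%, 14.6% and 15.5% of all genes). The same 12 factors that rose at 2 months rose at all 4 ages: Eif3f, Eif3h, Eif3i, Eif3k, Eif3m, Eif4a1, Eif4b, Eef1a1, Eef1b2, Eef1d, Eef1g and Eef2. A further 10 rose at 4, 6 and 8 months, so that 22 rose at each of these ages, and another 22 passed at no age. DEGs numbered 1, 12, 19 and 17 of the factors (1.98%, 13.8%, 19.8% and 15.9% of all genes), and 11 were DEGs at 4, 6 and 8 months alike. Of these 11, Eef2k alone was lower in rTg4510.

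**Figure D2:**
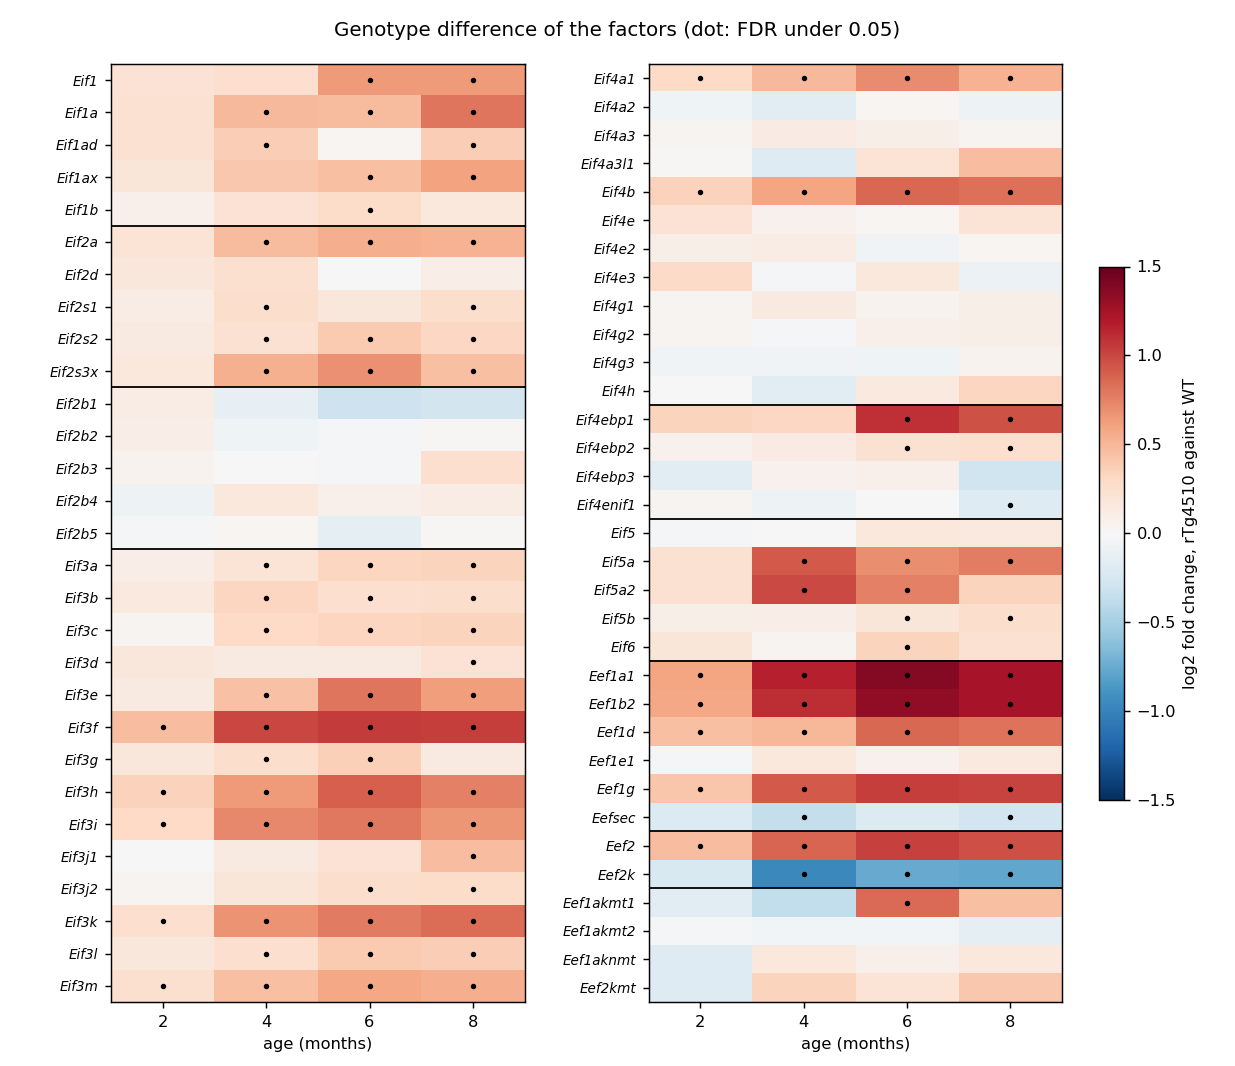
Log2 fold change of rTg4510 against WT (colour) for each of the 62 factors (rows, lines separate the roles) at 2, 4, 6 and 8 months (columns), with a dot where FDR was under 0.05. Dots fill most rows of eIF1, eIF2, eIF3 and eEF1, while the 5 eIF2B rows and 10 of the 12 eIF4 rows hold none.

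In elongation, the genes for delivery of aminoacyl-tRNA stood out. Of the 6 eEF1 genes 4 rose at all ages, and Eef1a1 and Eef1b2 had the largest fold changes of all 62 factors at 6 months. Eef1a1 (Entrez 13627, chromosome 9, 78478453 to 78481724, GRCm38.p6) encodes the GTPase that carries aminoacyl-tRNA. At 2 months its log2 signal was 10.57, 10.35, 10.40 and 10.42 in the WT libraries and 11.16, 10.90, 11.18 and 10.90 in the rTg4510 libraries. At 6 months the values were 10.25, 10.18, 10.39 and 10.53 in WT and 11.63, 11.67, 11.73 and 11.80 in rTg4510. The lowest rTg4510 library lay above the highest WT library at each age, and WT libraries of all ages stayed within 10.18 and 10.57. The log2 fold change of Eef1a1 was 0.60 (SE 0.0891, FDR = 0.000232) at 2 months, 1.16 (SE 0.103, FDR = 3.45e-08) at 4 months, 1.37 (SE 0.0891, FDR = 1.45e-10) at 6 months and 1.24 (SE 0.103, FDR = 1.02e-08) at 8 months, or 1.51, 2.24, 2.59 and 2.36 fold. After quantile normalization these were 0.43, 0.77, 0.89 and 0.81, smaller but still past FDR 0.05. The change at 2 months was the only DEG of that age, and its fold lay just past 1.5.

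Eef1b2 (Entrez 55949, chromosome 1, 63176831 to 63180486) encodes the eEF1B subunit that exchanges the nucleotide on eEF1A. Its WT libraries of 6 months had log2 signals of 8.97, 9.08, 9.11 and 9.15 and its rTg4510 libraries 10.38, 10.40, 10.42 and 10.43. The gap between the genotypes was many times the spread within either, and the groups did not overlap at any age. Log2 fold changes of Eef1b2 went from 0.58 (SE 0.0671, FDR = 2.2e-05), through 1.11 (SE 0.0775, FDR = 1.3e-09) and 1.33 (SE 0.0671, FDR = 4.37e-12) to 1.24 (SE 0.0775, FDR = 2.27e-10) at 8 months. The other eEF1B subunits moved the same way by less. Eef1g, the scaffold subunit, was 0.41, 0.92, 1.04 and 1.02 higher on the log2 scale (FDR = 0.000401, 1.27e-08, 1.18e-10 and 2.82e-09), and Eef1d, the other exchange subunit, 0.45, 0.50, 0.86 and 0.82 (FDR = 0.00033, 8.63e-05, 4.5e-09 and 1.3e-07). For both, every rTg4510 library lay above every WT library at all 4 ages.

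**Figure D3:**
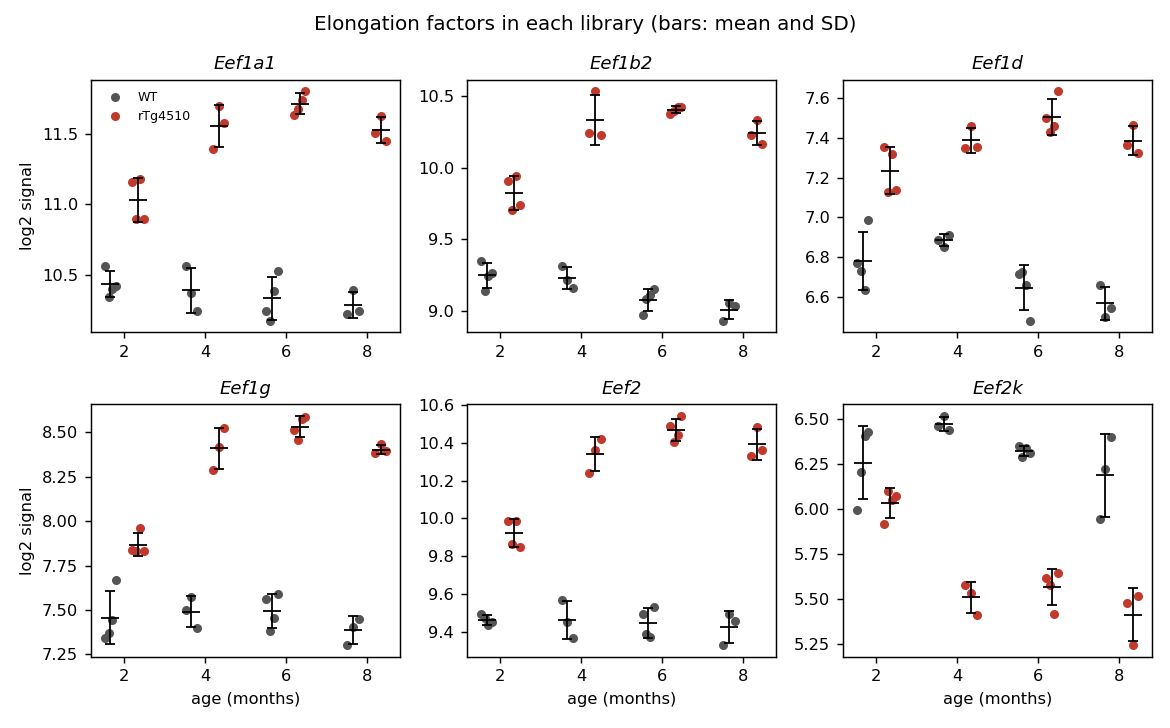
Log2 signal of 6 elongation genes in each library (points, grey WT and red rTg4510) by age in months, with mean and SD as bars. Eef1a1, Eef1b2, Eef1d, Eef1g and Eef2 lie higher in rTg4510 at each age without overlap, and Eef2k lies lower without overlap from 4 months on.

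The other genes of the delivery group did not rise. Eef1e1, which despite its name is a scaffold protein of the aminoacyl-tRNA synthetase complex, had log2 fold changes of -0.02, 0.15, 0.06 and 0.15 (FDR = 0.976, 0.589, 0.785 and 0.588). Eefsec, the elongation factor that brings selenocysteine to the ribosome, fell at 4 months (log2 fold change -0.36, SE 0.101, FDR = 0.0112) and at 8 months (-0.28, SE 0.101, FDR = 0.0419). At 8 months its WT libraries had log2 signals of 5.91, 5.80 and 6.04 and its rTg4510 libraries 5.59, 5.74 and 5.56, so the groups were apart by little. With a block for the replicate number Eefsec no longer passed at 8 months (FDR = 0.12).

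Eef2 and the kinase that inhibits it moved in opposite directions. Eef2 (Entrez 13629, chromosome 10, 81176631 to 81182509) encodes the translocase, and its log2 signal at 4 months was 9.57, 9.45 and 9.37 in WT and 10.24, 10.36 and 10.42 in rTg4510. Its log2 fold change was 0.46 (SE 0.0532, FDR = 2.2e-05) at 2 months, 0.88 (SE 0.0614, FDR = 1.27e-09) at 4 months, 1.02 (SE 0.0532, FDR = 6.5e-12) at 6 months and 0.97 (SE 0.0614, FDR = 2.62e-10) at 8 months. WT libraries lay between 9.33 and 9.57 at all ages and rTg4510 libraries from 9.85 up, so the groups never overlapped.

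Eef2k (Entrez 13631, chromosome 7, 120842642 to 120907219) encodes the calcium and calmodulin dependent kinase that phosphorylates eEF2 and slows elongation. At 2 months its log2 signals overlapped, at 6.00, 6.21, 6.41 and 6.43 in WT and 5.92, 6.10, 6.05 and 6.08 in rTg4510, and differed by -0.22 on the log2 scale (SE 0.093, FDR = 0.211). At 4 months WT had 6.46, 6.52 and 6.44 and rTg4510 5.58, 5.54 and 5.41. Eef2k fell by 0.97 on the log2 scale (SE 0.107, FDR = 6.12e-07), to 0.512 of the WT level, and was again lower at 6 months (log2 fold change -0.76, SE 0.093, FDR = 1.24e-06) and at 8 months (-0.78, SE 0.107, FDR = 8.88e-06). Every rTg4510 library lay below every WT library from 4 months on. It was the only factor to fall at more than 2 ages. Fitted to the libraries of 8 months alone, its FDR was 0.0562.

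Of the 4 measured methyltransferases that modify eEF1A or eEF2, Eef1akmt1 passed at 6 months only. Its rTg4510 libraries then had log2 signals of 4.58, 5.10, 4.93 and 5.40 and its WT libraries 4.33, 4.39, 3.81 and 4.08 (log2 fold change 0.85, SE 0.235, FDR = 0.00782). At 2 and 4 months the difference was -0.16 and -0.36 (FDR = 0.84 and 0.378) with overlapping groups, and its SE was the largest of the 25 factors chosen for description. Eef1akmt2, Eef1aknmt and Eef2kmt passed at no age, with Eef2kmt passing at 8 months with the replicate block (log2 fold change 0.40, FDR = 0.0298).

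Start sites were examined because the factors that rose most are known for TOP mRNAs. RefSeq (GRCm38.p6) gave a promoter for 48 of the 62 factors, 23 of those that rose at 6 months and 25 others. The 40 bases around the annotated start are shown for 3 factors that rose and have a long pyrimidine run there, for Eef1b2, which rose as much without one, and for Eif2b5, which has the longest run and passed at no age. Capitals mark the longest run of C and T, and the annotated first base follows the first 20 bases.
Eef1a1 (chr9:78481705-78481744, minus strand): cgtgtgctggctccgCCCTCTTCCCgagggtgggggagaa
Eif3f (chr7:108934395-108934434, plus strand): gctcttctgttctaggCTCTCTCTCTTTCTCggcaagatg
Eif2s3x (chrX:94212632-94212671, minus strand): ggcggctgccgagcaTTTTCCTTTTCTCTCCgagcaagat
Eef1b2 (chr1:63176811-63176850, plus strand): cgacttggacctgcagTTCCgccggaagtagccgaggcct
Eif2b5 (chr16:20498797-20498836, plus strand): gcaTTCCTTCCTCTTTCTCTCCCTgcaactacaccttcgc
The runs are 10 bases in Eef1a1, 15 in Eif3f, 16 in Eif2s3x, 4 in Eef1b2 and 21 in Eif2b5. Counted from the annotated first base, they begin at -5 in Eef1a1, -4 in Eif3f, -5 in Eif2s3x, -4 in Eef1b2 and -17 in Eif2b5. Bases before the first base are not in the annotated transcript, so the length of a run does not measure a TOP motif. A strict TOP start, a C at the annotated first base followed on the transcript strand by 4 or more pyrimidines, was found in 2 of 48 factors, Eif3f and Eif2s3x, and in 3.01% of 27025 genes with a promoter. Both rose at 6 months. A run of at least 8 pyrimidines within these 40 bases, a length and window chosen after the sequences had been seen, occurred in 5 of 23 factors that rose at 6 months, 5 of 25 others and 18.4% of all genes. In the window from 250 bases before to 50 after the start, the E-box CACGTG, the same on both strands, occurred in 13 of 48 factors (8 of the 23 and 5 of the 25) and in 8.09% of all genes, and TGATGNAA, searched on both strands, in 2 of 48 and 4.51%. These counts describe letters only, and an annotated start can lie some bases from the one used in microglia.

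eIF3, the largest initiation factor and the largest group here, was by count the group with most members that rose: 5, 11, 12 and 13 of its 14 subunits at 2, 4, 6 and 8 months, and 0 fell. Eif3f (Entrez 66085, chromosome 7, 108934415 to 108941942), an MPN-domain subunit, changed most. Its log2 signal at 4 months was 7.28, 7.22 and 7.16 in WT and 8.09, 8.29 and 8.30 in rTg4510, and at 6 months 7.35, 7.29, 7.48 and 7.32 in WT and 8.38, 8.28, 8.48 and 8.51 in rTg4510. The groups were far apart at these ages, as at 8 months, but overlapped at 2 months, where WT reached 7.69 and rTg4510 started at 7.64. Against WT, Eif3f changed on the log2 scale by 0.46 (SE 0.109, FDR = 0.0117), 1.01 (SE 0.126, FDR = 3.02e-06), 1.05 (SE 0.109, FDR = 1.22e-07) and 1.03 (SE 0.126, FDR = 1.71e-06) at the 4 ages. At 2 months it no longer passed without rTg4510 replicate 3.

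Eif3h, the other MPN-domain subunit, was 0.35, 0.63, 0.90 and 0.75 higher (FDR = 0.0013, 1.07e-06, 4.85e-10 and 8.05e-08), and at 6 months its WT libraries spanned 7.95 to 8.22 and its rTg4510 libraries 8.91 to 9.02. Its groups did not overlap at any age. Eif3k, a small peripheral subunit, was 0.25, 0.68, 0.78 and 0.83 higher (FDR = 0.0315, 1.46e-06, 1.21e-08 and 7.07e-08), and Eif3i, a WD40 subunit, 0.30, 0.72, 0.79 and 0.66 (FDR = 0.0106, 8e-07, 1.53e-08 and 2.06e-06). Both overlapped with WT at 2 months only, and the call of Eif3k at 2 months was lost in 5 fits without 1 library, after quantile normalization (FDR = 0.0975), after centring (FDR = 0.0732) and in the fit of that age alone (FDR = 0.307). Eif3e, a PCI-domain subunit, was 0.13 higher at 2 months (FDR = 0.327), then 0.44, 0.80 and 0.62 (FDR = 0.000126, 2.64e-09 and 1.28e-06).

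Eif3a, the largest subunit, changed by little but with little scatter. Its log2 signals at 6 months were 9.16, 9.20, 9.17 and 9.16 in WT and 9.43, 9.54, 9.47 and 9.55 in rTg4510. The log2 fold change was 0.10 (FDR = 0.145) at 2 months, 0.20 (SE 0.0439, FDR = 0.00175) at 4 months, 0.33 (SE 0.0381, FDR = 6.49e-07) at 6 months and 0.33 (SE 0.0439, FDR = 5.21e-06) at 8 months. After quantile normalization it was -0.00338 at 4 months (FDR = 0.968) and 0.10 and 0.12 at 6 and 8 months. Eif3d, the cap-binding subunit, changed by at most 0.22 at any age and passed at 8 months alone (log2 fold change 0.22, FDR = 0.0239), and at 6 months with the replicate block (FDR = 0.0288). Eif3j2 rose at 6 and 8 months (0.27 and 0.28), though at 8 months not with that block (FDR = 0.0601).

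The 8 subunits of the PCI and MPN core (Eif3a, Eif3c, Eif3e, Eif3f, Eif3h, Eif3k, Eif3l and Eif3m) all rose at 4, 6 and 8 months, with median log2 fold changes of 0.44, 0.68 and 0.58. Of the other 6 subunits, 3, 4 and 5 rose (medians 0.22, 0.26 and 0.27). This grouping was made after the values had been seen, so the difference is a description.

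**Figure D4:**
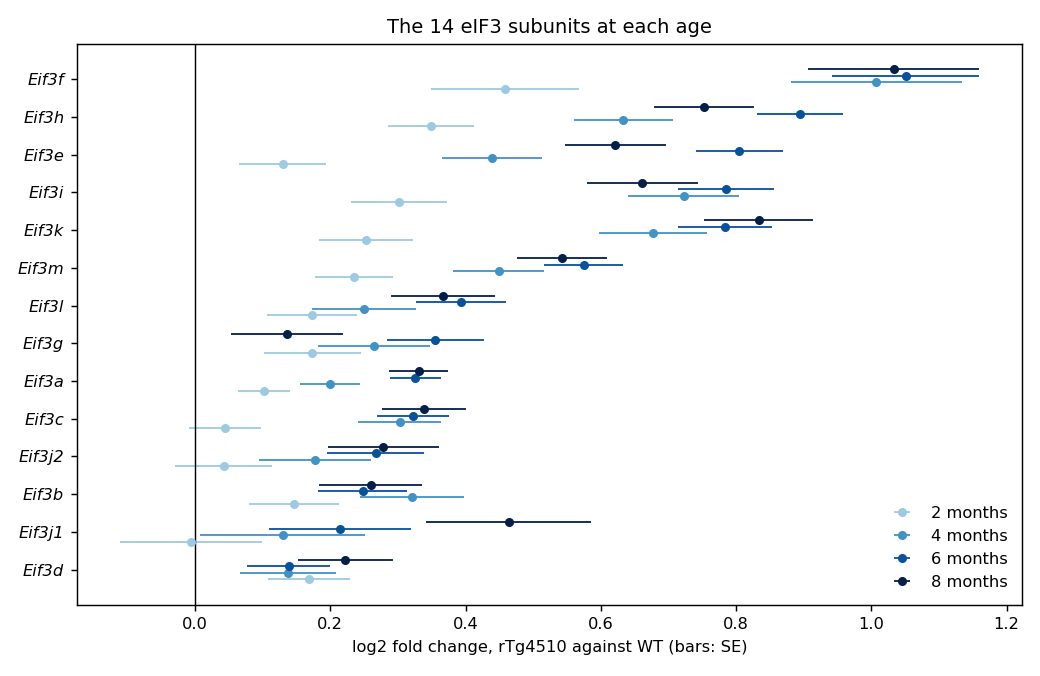
Log2 fold change of rTg4510 against WT with its SE for the 14 eIF3 subunits at 2, 4, 6 and 8 months (light to dark), ordered by the change at 6 months. Eif3f lies near 1.01 to 1.05 from 4 months on, while Eif3d at the bottom stays between 0.14 and 0.22, and the points of 2 months lie lowest for 12 of the 14 subunits.

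Of 5 measured genes for delivery of the initiator tRNA, 4 rose at some age, among them Eif2s1, whose calls depended on the fit. Eif2s3x (Entrez 26905, chromosome X, 94188709 to 94212651), the X-linked gamma subunit of eIF2 that binds the tRNA, had log2 signals of 6.94, 6.93, 6.99 and 6.97 in WT and 7.64, 7.68, 7.57 and 7.70 in rTg4510 at 6 months. The 2 sets were tight and far apart. Its log2 fold change was 0.16 (FDR = 0.173) at 2 months, then 0.53 (SE 0.0703, FDR = 5.73e-06), 0.69 (SE 0.0609, FDR = 1.09e-08) and 0.45 (SE 0.0703, FDR = 3.51e-05). Eif2a, a separate factor that can also bring initiator tRNA, rose by 0.48, 0.55 and 0.52 at 4, 6 and 8 months (FDR = 0.000185, 3.57e-06 and 5.81e-05), and Eif2s2, the beta subunit, by 0.22, 0.39 and 0.31 (FDR = 0.0251, 3.16e-05 and 0.00231).

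Eif2s1, the alpha subunit whose phosphorylation shuts initiation down, was near the threshold. At 8 months its log2 signal was 7.19, 7.12 and 7.26 in WT and 7.37, 7.43 and 7.54 in rTg4510. Its log2 fold change was 0.11, 0.26, 0.16 and 0.26 (FDR = 0.593, 0.0468, 0.127 and 0.0476), just inside the threshold at 4 and 8 months. Both calls were lost in 17 of 28 fits that left out 1 library, after quantile normalization (FDR = 0.0944 and 0.113) and after centring (FDR = 0.0523 and 0.1). The call at 8 months was also lost with moderated variance (FDR = 0.0506) and with the replicate block (FDR = 0.0939). The 95% intervals reached from 0.07 to 0.46 at 4 months and from 0.06 to 0.45 at 8 months. Eif2d, the remaining gene of the group, passed at no age.

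eIF2B, the 5-subunit exchange factor that recycles eIF2, showed no call at any age. Log2 fold changes of Eif2b1 to Eif2b5 lay between -0.07 and 0.11 at 2 months, -0.12 and 0.15 at 4 months, -0.31 and 0.08 at 6 months and -0.28 and 0.25 at 8 months. Their 95% intervals reached from -0.72 to 0.48 at 8 months, so single subunits were bounded only loosely. With the replicate block Eif2b5 passed at 6 months (log2 fold change -0.15, FDR = 0.0449). Among 10 kinases, phosphatase subunits and helpers that act on eIF2α, 0 rose and 0, 1, 2 and 2 fell at the 4 ages. Of all genes 4.76%, 14.1%, 19.1% and 16% rose and 1.27%, 9.1%, 14.9% and 9.78% fell. This list of 10 is too short to be told apart from these shares. The 2 that fell were Gcn1, the ribosome-bound activator of the kinase GCN2 (log2 fold change -0.43, -0.58 and -0.52 at 4, 6 and 8 months), and Eif2ak4, GCN2 itself (-0.22 and -0.25 at 6 and 8 months, FDR = 0.0203 and 0.0294).

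Of the 5 genes of eIF1 and eIF1A type by name, Eif1ad among them, 0, 2, 4 and 4 rose at 2, 4, 6 and 8 months. The shares of all genes that rose were 4.76%, 14.1%, 19.1% and 16%. The genotype effect differed between neighbouring ages for 0 of the 5 when tested itself (FDR 0.05). Eif1, which guards the choice of start codon, had log2 signals of 8.03, 8.11 and 8.02 in WT and 8.74, 8.67 and 8.64 in rTg4510 at 8 months, without overlap, whereas its groups overlapped at 2 and 4 months. Its log2 fold change was 0.22 and 0.25 (FDR = 0.514 and 0.321), then 0.64 (SE 0.144, FDR = 0.00142) and 0.63 (SE 0.166, FDR = 0.00667). Eif1a was 0.22, 0.49, 0.47 and 0.81 higher (FDR = 0.446, 0.0251, 0.00898 and 0.000362), with rTg4510 libraries of 6.38 to 6.48 and WT libraries of 5.31 to 5.96 at 8 months. Its call at 4 months was lost in 5 fits without 1 library. Eif1ax, the X-linked copy, was 0.40 higher at 4 months (FDR = 0.0615) and rose by 0.45 and 0.61 at 6 and 8 months (FDR = 0.0105 and 0.00423).

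The gene families of cap binding and unwinding were counted together. Of 12 genes of eIF4E, eIF4G, eIF4A, eIF4B and eIF4H type, the same 2, Eif4a1 and Eif4b, rose at each age and 0 fell. Among all genes 4.76%, 14.1%, 19.1% and 16% rose and 1.27%, 9.1%, 14.9% and 9.78% fell at the 4 ages. A list of 12 is too short to be told apart from these shares. Eif4b (Entrez 75705, chromosome 15, 102073773 to 102097173), which stimulates the helicase, had log2 signals of 7.98, 7.76, 7.87 and 7.88 in WT and 8.73, 8.81, 8.60 and 8.80 in rTg4510 at 6 months. Its groups did not overlap at any age. The log2 fold change of Eif4b was 0.35 (SE 0.06, FDR = 0.000814), 0.59 (SE 0.0693, FDR = 1.29e-06), 0.86 (SE 0.06, FDR = 3.75e-10) and 0.83 (SE 0.0693, FDR = 1.16e-08). Eif4a1, the main helicase, rose by 0.30, 0.48, 0.71 and 0.52 (FDR = 0.024, 0.000369, 2.95e-07 and 0.000158), the first lost in 4 fits without 1 library. Its paralog Eif4a2 differed by -0.06, -0.17, 0.02 and -0.07 (FDR = 0.729, 0.0954, 0.797 and 0.528).

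Eif4e, which binds the cap, had log2 signals of 6.72, 6.58, 6.98 and 6.59 in WT and 6.66, 6.85, 6.90 and 6.58 in rTg4510 at 6 months, fully overlapping. Its log2 fold change at that age was 0.03 (95% interval -0.17 to 0.23, FDR = 0.844), and 0.22, 0.06 and 0.20 at 2, 4 and 8 months (FDR = 0.246, 0.757 and 0.193). At 8 months the genotypes did not overlap, and Eif4e passed there when the 2 groups of that age were fitted alone (FDR = 0.0231). Eif4g1, the scaffold between cap and ribosome, differed by 0.04, 0.13, 0.06 and 0.09 (FDR = 0.771, 0.0829, 0.374 and 0.235), its interval at 6 months reached from -0.04 to 0.15, and it passed at 4 months after centring (FDR = 0.0458). For Eif4g1 that interval lies below the change of Eif4b at the same age.

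Of the 4 genes for repression and transport of eIF4E, 0, 0, 2 and 2 rose and 0, 0, 0 and 1 fell at the 4 ages. At 6 and 8 months 19.1% and 16% of all genes rose, and at 8 months 9.78% fell. Eif4ebp1 (Entrez 13685, chromosome 8, 27260327 to 27275656) encodes 4E-BP1, which blocks eIF4E until mTORC1 phosphorylates it. Its log2 signals at 4 months were 5.59, 5.94 and 5.77 in WT and 6.02, 6.03 and 6.16 in rTg4510, and at 6 months 5.17, 5.55, 5.69 and 5.22 in WT and 6.73, 6.47, 6.66 and 6.14 in rTg4510. At 8 months WT had 5.26, 5.50 and 5.35 and rTg4510 6.27, 6.10 and 6.60. The groups overlapped at 2 months and were apart at the other ages, but by little at 4 months. The log2 fold change of Eif4ebp1 was 0.34 (FDR = 0.281) and 0.31 (FDR = 0.245) at 2 and 4 months and 1.09 (SE 0.156, FDR = 9.47e-06) and 0.96 (SE 0.18, FDR = 0.000328) at 6 and 8 months. The step from 4 to 6 months, 0.79 on the log2 scale, did not pass when tested itself (FDR = 0.294).

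Eif4ebp2, its paralog, rose by 0.23 and 0.25 at 6 and 8 months (FDR = 0.0136 and 0.0252), and Eif4ebp3 passed at no age. Eif4enif1, the eIF4E transporter, fell by 0.19 at 8 months (FDR = 0.0474) with overlapping groups and not with the replicate block (FDR = 0.0606). Of 13 kinases and regulators of mTORC1 and MAP kinase input, 1, 2, 1 and 0 rose and 0, 4, 4 and 2 fell at the 4 ages. The shares of all genes were 4.76%, 14.1%, 19.1% and 16% that rose and 1.27%, 9.1%, 14.9% and 9.78% that fell. Among those that fell was Rps6ka1, the S6 kinase RSK1 (log2 fold change -0.42, -0.50 and -0.46 at 4, 6 and 8 months). Mtor itself differed by -0.05, -0.06 and -0.09 (FDR = 0.667, 0.466 and 0.392).

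**Figure D5:**
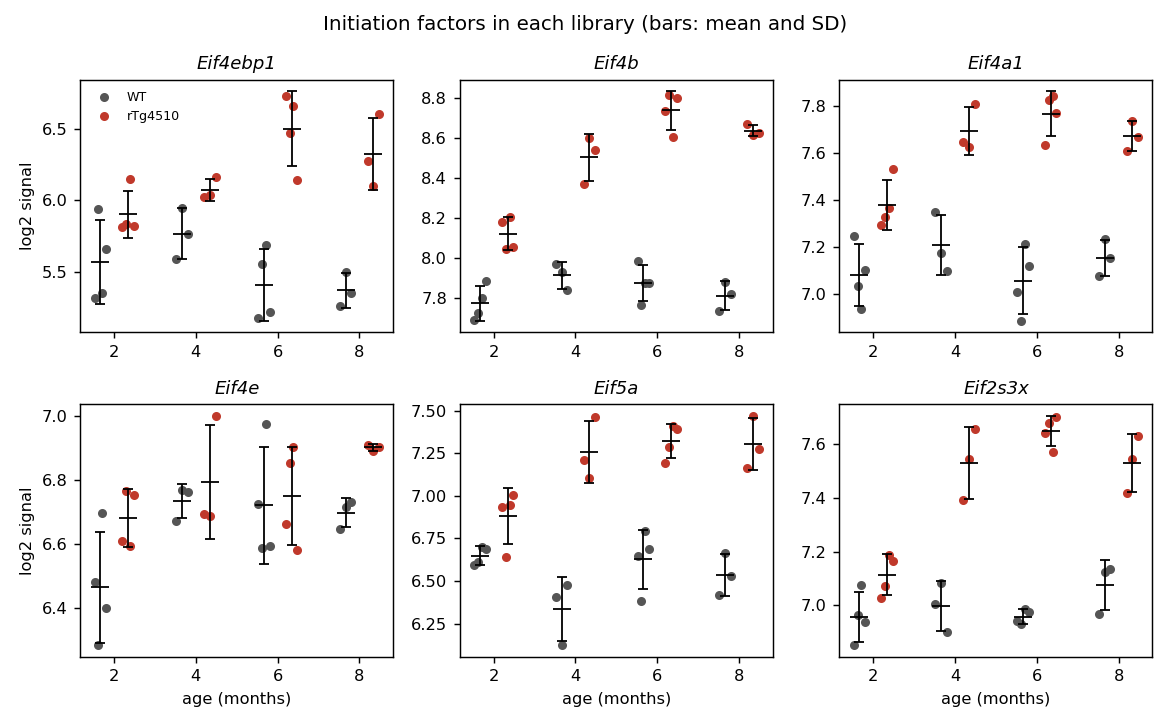
Log2 signal of 6 initiation genes in each library (points, grey WT and red rTg4510) by age in months, with mean and SD as bars. Eif4b and Eif4a1 lie higher in rTg4510 at all ages, Eif4ebp1 is widest apart at 6 and 8 months, Eif5a and Eif2s3x part from 4 months on, and Eif4e overlaps at 2, 4 and 6 months.

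Partners that bridge initiation to the poly(A) tail or remodel mRNA were counted as a separate list of 13 genes. Of these, 2, 2, 4 and 2 rose and 0, 0, 2 and 0 fell. The shares of all genes were 4.76%, 14.1%, 19.1% and 16% that rose and 1.27%, 9.1%, 14.9% and 9.78% that fell. Pabpc1, the poly(A)-binding protein, rose at all 4 ages (log2 fold change 0.56, 1.26, 1.32 and 1.24), and its paralog Pabpc4 fell at 6 months (-0.22, FDR = 0.0204). Pdcd4, which inhibits eIF4A, rose by 0.25 and 0.23 at 2 and 6 months (FDR = 0.0267 and 0.0127).

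Among subunit joining and late factors, Eif5a and its paralog Eif5a2 changed most. Eif5a (Entrez 276770, chromosome 11, 69916712 to 69921958) encodes the hypusine-bearing factor that helps the ribosome through stalling sequences. At 4 months its log2 signal was 6.41, 6.12 and 6.47 in WT and 7.21, 7.11 and 7.46 in rTg4510, with the groups well apart, as they were at 6 and 8 months and not at 2 months. Eif5a thus changed by 0.23 (FDR = 0.251), 0.92 (SE 0.119, FDR = 4.36e-06), 0.69 (SE 0.103, FDR = 1.65e-05) and 0.77 (SE 0.119, FDR = 3.63e-05). Eif5a2 rose by 0.99 at 4 months (SE 0.236, FDR = 0.00348) and 0.76 at 6 months (SE 0.204, FDR = 0.00632), with 0.33 at 8 months (FDR = 0.341). Its WT libraries at 4 months were scattered, at 4.16, 5.33 and 4.41, against 5.34, 5.90 and 5.63 in rTg4510.

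Eif6, which keeps the ribosomal subunits apart until joining, rose at 6 months only (log2 fold change 0.34, SE 0.0967, FDR = 0.0101), where WT spanned 6.61 to 7.19 and rTg4510 7.07 to 7.35, so the groups overlapped. Eif5b, the GTPase of subunit joining, rose by 0.18 and 0.27 at 6 and 8 months (FDR = 0.0245 and 0.00543), at 6 months not with the replicate block (FDR = 0.0603). Eif5 passed at no age, and at 6 months with that block (log2 fold change 0.16, FDR = 0.0335). In a list of 8 genes of termination, ribosome rescue and hypusination, Etf1, the release factor eRF1, rose by 0.47, 0.54 and 0.59 at 4, 6 and 8 months, whereas its partner Gspt1, eRF3a, fell by 0.19, 0.30 and 0.38. In all, 0, 1, 2 and 1 of the 8 rose and 0, 1, 1 and 2 fell. Of 10 mitochondrial initiation and elongation factors 0 rose and 0, 1, 1 and 1 fell, the latter being Gfm2 (log2 fold change -0.41, -0.29 and -0.37). Of all genes 4.76%, 14.1%, 19.1% and 16% rose at the 4 ages and 1.27%, 9.1%, 14.9% and 9.78% fell. Lists of 8 and of 10 genes are too short to be told apart from these shares.

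The change with age was tested as the difference between the genotype effects of neighbouring ages. From 2 to 4 months the effect grew in 8 factors, Eif2s3x, Eif3i, Eif3k, Eif5a, Eef1a1, Eef1b2, Eef1g and Eef2, where 5.26% of all genes passed upward, and moved downward in 1, Eef2k (2.08%). The differences of the 8 lay between 0.38 (Eif2s3x, SE 0.093, FDR = 0.015) and 0.69 (Eif5a, SE 0.157, FDR = 0.00905). Eef2k had the largest of the 9 in size, -0.74 (SE 0.142, FDR = 0.00231). With the replicate block Eif3i did not pass here (FDR = 0.0575), and Eif3e and Eif3f did (FDR = 0.0478 and 0.036). From 4 to 6 months 0 factors passed in limma's fit, with 8 at an unadjusted p under 0.05, and 0.172% of all genes passed. From 6 to 8 months 0 factors passed, 2 were at an unadjusted p under 0.05, and 0% of all genes passed. Eef1d, which was not among the 8, gained 0.05 from 2 to 4 months (FDR = 0.869) and 0.36 from 4 to 6 months (FDR = 0.301).

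Age without the transgenes was examined in WT, at 8 against 2 months. Here 7 factors fell and 0 rose, where 3.39% of all genes fell and 0.818% rose. Of the 9 microglia markers 4 also fell and 0 rose, and the summed linear signal of the astrocyte markers spanned 342 to 633 at 2 months and 524 to 2333 at 8 months, that of the oligodendrocyte markers 176 to 458 and 284 to 1819, although 0 of these markers passed. Their part in the result was not tested. The 7 factors were Eif1ax, Eif2s2, Eif3c, Eif3k, Eif4g2, Eif4g3 and Eif4ebp2. In WT, Eif1ax fell by 0.69 on the log2 scale (SE 0.14, FDR = 0.00893), from 6.33, 6.21, 6.51 and 6.03 at 2 months to 5.61, 5.50 and 5.64 at 8 months, and was the only one past 1.5 fold (1.27% of all genes). The other 6 changed by -0.17 (Eif4g2) to -0.39 (Eif4ebp2). Of the 7, 5 were among the factors that rose in rTg4510 at 6 and 8 months. For these at least a part of the difference at 8 months lay in lower WT values. The rTg4510 libraries of 8 months had 6.08 to 6.29 for Eif1ax, within the WT range of 2 months (6.03 to 6.51). For Eif2s2 they had 7.15 to 7.20, also within that range (7.09 to 7.23). Eef1a1, Eef1b2 and Eef2 differed by -0.15, -0.24 and -0.04 between WT at 8 and at 2 months (FDR = 0.429, 0.0651 and 0.779). The WT count was 3 after centring on expressed protein-coding genes and 0 when only these WT groups were fitted.

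Near-identical copies limit some of these values. The table also holds 11 Eif and Eef pseudogenes, and 2, 7, 7 and 6 of them rose at the 4 ages. Among all genes 4.76%, 14.1%, 19.1% and 16% rose. Eef1a1-ps1 changed by 0.57, 1.17, 1.4 and 1.29, close to Eef1a1 at each age, and Eif3s6-ps2, a copy of Eif3e, by 0.22, 0.62, 0.89 and 0.73. Mean log2 signals of the 11 ranged from 3.09 to 12.27. The highest was that of Eif4a-ps4, above the highest mean of any of the 62 factors (11.81). Eif3s6-ps1 and Eif3s6-ps2 averaged 8.56 and 9.31 over the 28 libraries of both genotypes. Eif3e had 7.41 to 7.62 in WT at 6 months and was 0.80 higher in rTg4510 at that age. Eef1a1-ps1 averaged 10.02. How reads that match several copies were assigned is not given in the sources used here, so the values of Eef1a1, Eef2, Eif3e, Eif4a1, Eif5a and Eif1, of the paralogs Eif3j1 and Eif3j2, and of Eif1a and Eif1ax are uncertain to the extent that copies share reads.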

How the data were processed

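RNA-seq libraries of CD11b-positive forebrain cells were deposited by the authors as 1 table of log2 signals per gene, median normalized by them, without counts, so the depth of each library cannot be read from the values. The methods give 1 approximate depth for all samples. The authors left out exons with fewer than 10 reads in more than 80% of samples and combined each gene's exons by robust linear modelling. The submitters' processing notes name GRCm 38. The aligner is not given in the sources used here, and 0 sample columns went unused. Gene IDs were matched to RefSeq (GRCm38.p6; 17828 of 18588). A linear model with a mean for each of 8 groups was fitted to all genes in limma 3.58.1 (R 4.3.3) without variance moderation, with Benjamini-Hochberg adjustment per comparison, and checked on simulated data. Described were up to 20 factors with the largest change at any age among those past FDR 0.05 and 1.5 fold, plus the best known factor of each role, which added Eif2s1, Eif4e, Eif4g1, Eif3a and Eif6. Others were chosen after their values were seen. Members and lists (roles, eIF2α regulators, poly(A) partners, mTORC1 inputs, termination, mitochondrial factors, pseudogenes, cell type markers) were chosen with earlier results of these data known. Alternatives were quantile normalization, centring, a filter at the 25th percentile of mean signal, moderated variance, single-age fits, all 32 libraries, a replicate block and leaving out each library. Same-numbered libraries of both genotypes deviated together at 6 months (r 0.131 to 0.153) and 8 months (r 0.15 to 0.291). At 2 months all such pairs were positive (r 0.0649 to 0.167), but not all reached the 0.1 taken as the limit for pairing. At 4 months r was -0.0999 to 0.124. Pairs with different numbers had r -0.194 to 0.0816 at 2 months and -0.127 to 0.0913 at 6 months. The labels do not say what a number marks. Libraries are separate pools of animals.
Of the other marker lists, astrocytes (6 genes) had 1 higher and 1 lower at 6 months and 1 and 2 at 8 months, oligodendrocytes (7) had 1 lower at 8 months, border macrophages (5) 1 lower at 6 months, and lymphocytes (5 measured) 2 and 1 lower at 4 and 6 months. Endothelial markers (6) had 1 higher at 4, 6 and 8 months each and 1, 3 and 1 lower, and cycling markers (6) had 3 higher at 4 months and 4 and 2 lower at 6 and 8 months.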

Additional observations from a re-analysis of the deposited data

Results flagged for a closer look

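A single library stood apart from the other 3 of its group, by Dixon's test at the 95% level, in 5 of 100 groups tested, and chance alone gives about 1 in 20. These were Eif4ebp1 in rTg4510 at 2 months, where replicate 3 had a log2 signal of 6.15 and the others 5.81 to 5.83, and Eef1g in the same library, at 7.96 against 7.83 to 7.84. Eef1akmt1 was low in WT at 2 months replicate 1 (4.30, others 5.05 to 5.08). Eif3e was high in WT at 6 months replicate 3 (7.62, others 7.41 to 7.44), and Eif6 was high in WT at 2 months replicate 4 (7.43, others 7.19 to 7.20).

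The genotype effect differed between 2 and 4 months in 9 factors, tested as the difference itself. On the log2 scale the effect was larger at 4 months by 0.69 for Eif5a, 0.56 for Eef1a1, 0.53 for Eef1b2, 0.51 for Eef1g, 0.42 for Eif3k, 0.42 for Eif3i, 0.42 for Eef2 and 0.38 for Eif2s3x. It changed by -0.74 for Eef2k.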

How the results depend on the processing

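The count of factors past FDR 0.05 moved most with the libraries fitted. With only the groups of an age fitted 2, 4 and 8 months gave 5 (12 otherwise), 16 (28) and 23 (35). With all 32 libraries it fell to 3, 22 (34 otherwise) and 20 at 2, 6 and 8 months, and the difference between 4 and 2 months passed for 5 factors (9). DEGs at 2 months went from 1 to 0 after quantile normalization and to 0 after centring. WT at 8 against 2 months gave 3 factors after centring, 0 with only these groups and 0 with all 32 libraries (7 otherwise). Moderated variance gave 12, 28, 34 and 32 at the 4 ages. The fits of single ages hold fewer samples, and otherwise the cause was not tested. Under quantile normalization 23, 29 and 27 factors were higher and 6, 4 and 5 lower at 4, 6 and 8 months. Eif3a at 4 months turned to -0.00338 there. With all 32 libraries Eif3i passed at no age (FDR = 0.155, 0.119 and 0.264 at 4, 6 and 8 months) and Eef1d not at 2 and 4 months (FDR = 0.809 and 0.288). Fitted to a single age, Eif5a2 at 4 months (FDR = 0.205), Eif6 at 6 months (FDR = 0.123) and Eif1a at 6 and 8 months (FDR = 0.0679 and 0.0762) did not pass.

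Leaving out 1 library, the counts past FDR were 8 to 13, 22 to 29, 32 to 37 and 29 to 35 at 2, 4, 6 and 8 months, and DEGs 0 to 2, 11 to 14, 18 to 20 and 15 to 17. The difference between 4 and 2 months gave 7 to 12 factors, the later differences 0 to 0, and WT at 8 against 2 months 3 to 8, the lowest without WT at 8 months replicate 1. The lowest count at 2 months, 8, came without rTg4510 at 2 months replicate 3. Eef1akmt1 passed at 4 months without rTg4510 replicate 1 of that age, and Eef2k at 2 months without WT replicate 1.

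With the replicate number as a block, taken to pair the samples at 6 and 8 months, counts were 12, 26, 36 and 32 at the 4 ages. The calls it changed at 6 and 8 months are given beside the results, and no other call of a factor changed there. Same-numbered libraries also deviated together at 2 months (r 0.0649 to 0.167), and not in every pair at 4 months. With the block, Eif4a1 at 2 months (FDR = 0.0613) and Eif1a, Eif2s1 and Eefsec at 4 months (FDR = 0.0582, 0.0935 and 0.0571) did not pass. Eif3d at 2 months and Eif1ax at 4 months did. Precision is limited by the number of libraries, and no interval based on depth could be given without counts.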
